A study of Mus musculus with 28 samples.

Results

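Granins and the enzymes that mature peptide hormones form the machinery by which neurons fill their dense-core vesicles. The genes described here are Chga, Chgb, Scg2, Scg3 and Vgf, which encode granins or granin-like cargo, Scg5, which encodes 7B2, the chaperone of the convertase PC2, and the enzyme genes Pcsk1 (convertase PC1/3), Pcsk2 (PC2) and Cpe (carboxypeptidase E). These 9 genes were taken by name, and all 9 were found in each of the 7 comparison tables, among 22919 genes listed and 21192 tested.

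Granins are acidic, calcium-binding proteins that aggregate in the trans-Golgi network and are stored and released with neuropeptides, and several are themselves cut into active peptides. The convertases cut precursors at paired basic residues, and carboxypeptidase E then trims the basic residues from the new ends. Vgf and Scg2 are long known as genes induced by neurotrophins, depolarization and cAMP.

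Nascent RNA was measured by Bru-seq, in which newly made RNA is labelled with bromouridine, captured with an antibody and sequenced. The cultures came from the forebrain of CD1 mouse embryos at embryonic day 18, each replicate pooling cortices and hippocampi of several embryos, and held neurons, astrocytes and oligodendrocyte precursor cells. On day in vitro 14 lentivirus delivered either a non-targeting hairpin (shCtrl) or one directed at Rai1 (shRai1), a chromatin-associated regulator. On day 17 both arms received water as vehicle, the sodium channel blocker tetrodotoxin (TTX, 1 µM), which silences the network, or the GABA-A receptor blocker bicuculline (BIC, 20 µM), which raises activity. The drugs were present for 4 hours and bromouridine (2 mM, per the labels) for the last 20 minutes. Each of the 6 groups had 3 libraries, except shCtrl vehicle and shCtrl BIC with 2 each, 16 in all.

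The values are the authors' own summaries over libraries, so each change stands with its standard error (SE), the depth of single libraries is unknown and no value per library is given. The targeted gene gave no check of the arm labels. In the authors' deposited tables the log2 change of Rai1 in shRai1 against shCtrl was 0.16 (SE 0.073) in vehicle, -0.12 (SE 0.064) in TTX and 0.03 (SE 0.073) in BIC. None passed an adjusted p of 0.05, and Rai1 shares its listed interval with other genes. These values are of newly made RNA, so they do not give the level of mature Rai1 RNA. Marker genes of the labelled cell types were present in shCtrl vehicle, where the summed FPKM was 828 over 12 neuron markers, 369 over 10 astrocyte markers and 205 over 10 oligodendrocyte lineage markers, against 45.5 over 8 microglia markers. No marker was listed at 0 there, but some had a lower bound of 0, in the astrocyte, oligodendrocyte lineage and microglia lists. Gjb6, of astrocytes, had 0.078 FPKM with such a bound in vehicle and was listed at 0 in BIC. In bulk cultures, fewer cells of a type and less RNA per cell cannot be told apart.

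Levels were compared first in the control arm, by the authors' pooled FPKM (by its name, fragments scaled to gene length and library size). How fragments and lengths were counted is not given in the sources used here. Over the listed lengths, the mean normalized counts over all libraries order some genes otherwise. Cpe, listed at 100 kb, had 5726, and Scg2, listed at 5.42 kb, had 709. The order of members below holds for FPKM only. In vehicle the highest members were Vgf at 129 FPKM, with bounds in the file of 100.2 to 158, and Cpe at 124 FPKM (96.0 to 153). These bounds overlap almost fully. Scg5 followed at 61.3 FPKM (46.1 to 76.5), then Scg2 at 40.8 (31.3 to 50.4) and Chga at 39.0 (29.5 to 48.6). Chgb at 22.4 FPKM (16.8 to 28.0), Pcsk2 at 19.1 (13.5 to 24.8) and Scg3 at 19.0 (13.8 to 24.2) lay close together with overlapping bounds. Pcsk1 was the lowest member by FPKM, at 5.94 (3.78 to 8.09). Its bounds met those of no other member in vehicle. On mm9, as the file lists them, Pcsk1 spans 75227435 to 75269946 on chromosome 13, Scg2 79431244 to 79436665 on chromosome 1 and Vgf 137506165 to 137509221 on chromosome 5. By FPKM at rest, PC2 thus had the more heavily transcribed gene and PC1/3 the more sparsely transcribed one. Over all libraries the mean normalized count was 5679 over 281 kb for Pcsk2 and 1129 over 42.5 kb for Pcsk1. Per listed length these counts, which include both drugs, do not show that gap.

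**Figure D1:**
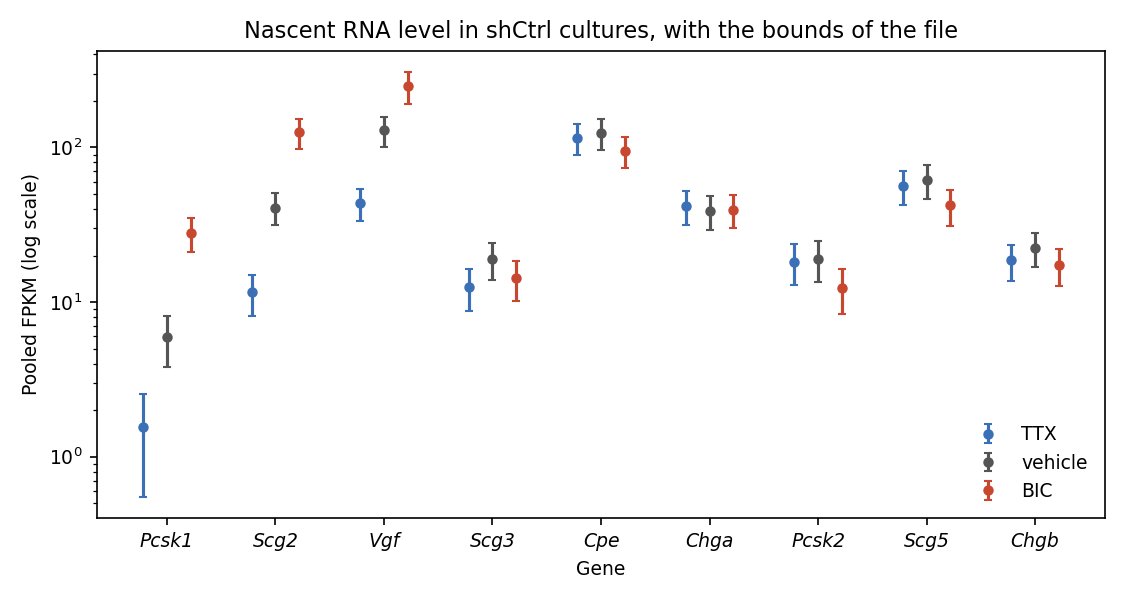
The pooled FPKM of each gene (log axis) in the shCtrl cultures under TTX, vehicle and BIC is plotted, with bars for the lower and upper bounds given in the file. Pcsk1, Scg2 and Vgf climb from TTX through vehicle to BIC without overlapping bounds, and Chga stays near 40 in all 3 conditions.

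Silencing and raised activity moved Pcsk1, Scg2 and Vgf across a wide range. Pcsk1, the gene of the convertase that opens the processing of many neuropeptide precursors, had 1.55 FPKM in shCtrl TTX (bounds 0.551 to 2.54), 5.94 in vehicle and 27.9 in BIC (21.1 to 34.8). The bounds of the 3 conditions did not overlap. Scg2, the precursor of the peptide secretoneurin, had 11.6 FPKM in TTX (8.08 to 15.0), 40.8 in vehicle and 125 in BIC (97.2 to 154), again without overlap. Vgf, whose protein gives several neuropeptides, had 43.8 FPKM in TTX (33.6 to 53.9), 129 in vehicle and 250 in BIC (191 to 308). For Vgf too, the 3 conditions were separate.

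The FPKM bounds of the remaining members overlapped between conditions. Scg3, which tethers granin aggregates to cholesterol-rich membrane, had 12.5 FPKM in TTX (8.73 to 16.3), 19.0 in vehicle and 14.3 in BIC (10.2 to 18.4), with all bounds overlapping. Chga, the classic granin of endocrine cells, had 41.8 FPKM in TTX, 39.0 in vehicle and 39.6 in BIC. Scg5 had 56.5, 61.3 and 42.2 FPKM in the same order, and Chgb 18.6, 22.4 and 17.3. Cpe had 115, 124 and 95.3 FPKM, and Pcsk2 18.2, 19.1 and 12.4.

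The tests of the TTX response came next. Of the 9 members, 6 fell and none rose with TTX in the control arm, by the authors' deposited table (DESeq2, calls at an adjusted p below 0.05), where 14.9% of all 15464 genes with an adjusted p were lower and 26.7% were called in either direction. The median log2 change of the members was -0.57, against 0.00 over all genes tested. Pcsk1 fell by 2.09 on the log2 scale (SE 0.14, adjusted p 1.56e-47), Scg2 fell by 2.06 (SE 0.15, adjusted p 2.38e-40) and Vgf fell by 1.86 (SE 0.11, adjusted p 4.55e-66), each in the authors' deposited table. These are falls of 4.26-, 4.18- and 3.63-fold. Neighbours in the order of these 3 genes did not differ beyond their 95% error, with errors taken as independent although the libraries are the same.

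The next members fell less. Scg3 changed by -0.65 (SE 0.10, adjusted p 9.42e-09), Chgb by -0.57 (SE 0.12, adjusted p 2.77e-05) and Scg5 by -0.44 (SE 0.074, adjusted p 3.68e-08) in the authors' deposited table for TTX. Vgf lay 1.21 below Scg3 (SE of the difference 0.15), whereas neighbours among Scg3, Chgb and Scg5 were not separated beyond their 95% error. On the FPKM scale the log2 ratios were smaller for Chgb (-0.27) and Scg5 (-0.12) and similar for Scg3 (-0.61). The members that did not pass in that deposited table of the authors were Cpe (-0.12, SE 0.092, adjusted p 0.359), Pcsk2 (-0.03, SE 0.10, adjusted p 0.895) and Chga (0.15, SE 0.11, adjusted p 0.348). Their 95% intervals ran from -0.30 to 0.06 for Cpe, from -0.23 to 0.18 for Pcsk2 and from -0.07 to 0.38 for Chga.

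The BIC response ran in more than 1 direction. Of the control arm's members 5 rose and 2 fell by the authors' deposited table, where 17.4% of 16692 genes were higher and 17% lower, 34.4% in all. Pcsk1 rose by 2.14 (SE 0.14, adjusted p 1.88e-52), Scg2 by 1.75 (SE 0.15, adjusted p 6.10e-31) and Vgf by 0.94 (SE 0.11, adjusted p 2.81e-16) on the log2 scale in the authors' deposited table. These changes are 4.40-, 3.36- and 1.92-fold. Under BIC, unlike under TTX, Vgf stood apart from Scg2, by 0.81 on the log2 scale (SE of the difference 0.18). Scg5 (-0.45, SE 0.083, adjusted p 6.41e-07) and Chgb (-0.59, SE 0.14, adjusted p 7.62e-05) were lower under BIC, as under TTX, in the authors' deposited tables. The same 2 vehicle libraries served both comparisons, so these paired falls are not independent of each other. Chga (0.07, SE 0.13, adjusted p 0.727) and Pcsk2 (-0.10, SE 0.12, adjusted p 0.579) did not pass in the authors' deposited table.

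Cpe and Scg3 are uncertain under BIC, since the authors' measures point opposite ways. The authors' deposited table gave rises of 0.68 for Cpe (SE 0.10, adjusted p 8.39e-10) and 0.54 for Scg3 (SE 0.11, adjusted p 1.49e-05) in shCtrl. The log2 ratio of the pooled FPKM, BIC over vehicle, was -0.38 for Cpe and -0.41 for Scg3. Among 5363 called genes whose mean normalized count reached 50, 504 (9.40%) had an FPKM ratio of the other sign in this comparison. The FPKM lay on the same side as the deposited change for 5 of the 7 calls under BIC and for all 6 under TTX, with bounds that overlapped those of vehicle for Scg5 and Chgb under both drugs and for Scg3 under TTX.

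**Figure D2:**
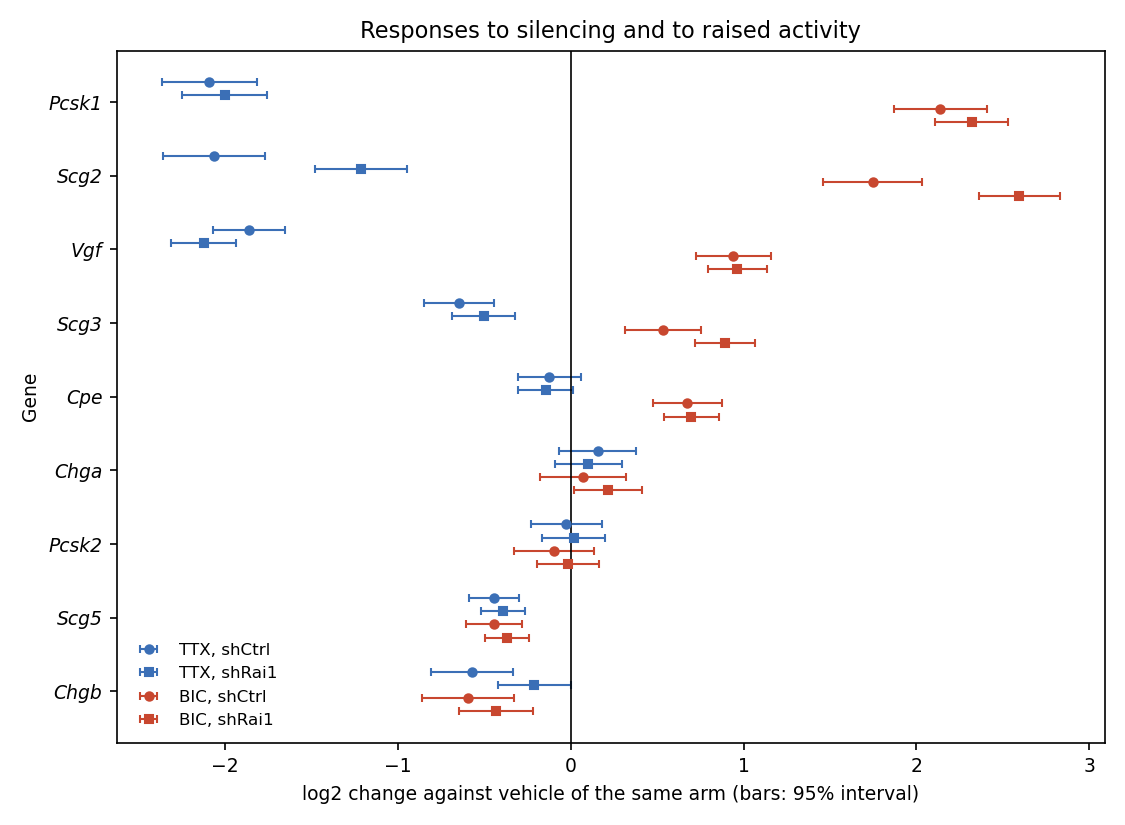
Each point is the log2 change against vehicle of the same arm in the authors' deposited tables, with its 95% interval, for TTX (blue) and BIC (red) in shCtrl (circles) and shRai1 (squares). Pcsk1, Scg2 and Vgf lie far to the left under TTX and to the right under BIC, while Scg5 and Chgb lie left of 0 under both drugs.

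The arm labelled shRai1 gave a second set of libraries for the same drugs. Under TTX 5 members were lower and none higher in the authors' deposited table for shRai1, where 16.8% of genes were lower and 30.5% called in all. Vgf (-2.13, SE 0.096, adjusted p 8.16e-106), Pcsk1 (4.01-fold lower, SE of the log2 change 0.12, adjusted p 2.01e-55), Scg2 (-1.22, SE 0.14, adjusted p 1.89e-17), Scg3 (-0.51, SE 0.092, adjusted p 5.69e-07) and Scg5 (-0.39, SE 0.065, adjusted p 2.45e-08) were the members that fell, in the authors' deposited table. By absolute Wald statistic Vgf ranked 8 among all 15464 genes. Chgb, called in shCtrl, had -0.21 (SE 0.11, adjusted p 0.131) here in the authors' deposited table.

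Under BIC 5 members rose and 2 fell in the authors' deposited table for shRai1, where 21.3% of genes were higher, 21.3% lower and 42.5% called in all. Scg2 rose by 2.60 (SE 0.12, adjusted p 1.40e-102) and Pcsk1 by 2.32 (SE 0.11, adjusted p 1.54e-99), per the authors' deposited table. These neighbours did not differ beyond their 95% error. Vgf (0.96, SE 0.086), Scg3 (0.89, SE 0.089) and Cpe (0.70, SE 0.081) rose less, and Chgb (-0.43, SE 0.11) and Scg5 (-0.37, SE 0.065) fell, all past the threshold by the authors' deposited table. Chga missed the threshold with 0.21 (SE 0.10, adjusted p 0.0727), per the authors' deposited table, and passed it when changes were centred on the median gene (0.25, adjusted p 0.0344). FPKM of the shRai1 arm is not used here, so Cpe and Scg3 have no second measure in it.

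The span from silenced to raised activity was taken as the BIC change minus the TTX change within an arm, in which the vehicle level cancels. Its error combined the errors of both responses in quadrature, which is an upper limit because they share the vehicle libraries, and the Wald test with Benjamini-Hochberg adjustment covered 18241 genes. In shCtrl 5 members were higher in BIC than in TTX and none lower, against 17.1% of all genes higher, 15.3% lower and 32.4% called in all. The span was 4.23 for Pcsk1 (SE at most 0.20), 3.81 for Scg2 (0.21), 2.80 for Vgf (0.15), 1.18 for Scg3 (0.15) and 0.80 for Cpe (0.14), with adjusted p-values from 9.18e-100 for Pcsk1 to 8.43e-08 for Cpe. For Pcsk1 and Scg2 these are 18.8- and 14.0-fold. On the FPKM scale, BIC over TTX was 18.1-fold for Pcsk1, 10.9-fold for Scg2 and 5.70-fold for Vgf, but 1.14 for Scg3 and 0.827 for Cpe.

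The 4 other members had no span that passed the test. In shCtrl it was -0.00 for Scg5 (95% interval -0.22 to 0.21), -0.02 for Chgb (-0.38 to 0.33), -0.07 for Pcsk2 (-0.38 to 0.24) and -0.08 for Chga (-0.42 to 0.25). On the FPKM scale BIC over TTX was 0.748 for Scg5, 0.679 for Pcsk2, 0.933 for Chgb and 0.946 for Chga, so for Scg5 and Pcsk2 the measures differ. In shRai1 the spans were 4.32 for Pcsk1, 3.81 for Scg2, 3.09 for Vgf, 1.40 for Scg3 and 0.84 for Cpe, all 5 called, where 20.3% of genes were higher, 19.3% lower and 39.5% called in all. The convertases thus parted: Pcsk1 was called in every one of these response comparisons, and Pcsk2, whose product works with the Scg5 protein, in none. The log2 ratio of the pooled FPKM of Pcsk2, BIC over vehicle, was -0.63, a larger fall than the deposited change of -0.10 in the authors' deposited table. Pcsk2 shares its listed interval with the antisense genes Pcsk2os1 and Pcsk2os2, whose mean normalized counts of 34.0 and 8.76 were far below its own 5679.

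The bases before the gene starts were read for 7 members with an entry in RefSeq's promoter sequences (GRCm38.p6), which leaves Vgf and Cpe unmatched, to show what the strongly moving genes have and do not have in common with the rest. The letters TGACGTCA, the cAMP response element bound by CREB-family factors, occurred in the 250 bases before the start of Scg2, Pcsk1 and Chgb. Of all 32851 promoters of that length, 508 (1.55%) hold them. The shorter core TGACG, searched on both strands and contained in the element itself, occurred in all 7 and in 17.8% of all promoters. The AP-1 letters TGAGTCA, on either strand, occurred in none of the 7 and in 4.46% of all. A window of 20 bases on either side of the match is printed 5′ to 3′ on the gene's strand, with the matched letters in capitals, for the 3 genes with the element and for Chga, which has the core only and did not pass under either drug.
Scg2, chr1:79440067-79440114, minus strand: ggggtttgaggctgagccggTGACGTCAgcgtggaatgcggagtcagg
Pcsk1, chr13:75089759-75089806, plus strand: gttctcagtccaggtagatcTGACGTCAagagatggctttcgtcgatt
Chgb, chr2:132781550-132781597, plus strand: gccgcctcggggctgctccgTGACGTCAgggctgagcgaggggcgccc
Chga, chr12:102554877-102554921, plus strand: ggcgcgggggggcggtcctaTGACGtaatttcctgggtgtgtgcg
The element began 68 bases before the start in Scg2, 78 in Pcsk1 and 72 in Chgb, and the core in Chga 44 bases before it. Of the 3 genes with the full element, Scg2 and Pcsk1 fell under TTX and rose under BIC. Chgb fell under both drugs in shCtrl, with FPKM bounds that overlapped those of vehicle, and was not called under TTX in shRai1. A part of the element in these responses was not tested. A match of letters is a description and shows no binding.

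Few genes differed between the arm labelled shRai1 and shCtrl, and among the members only Scg2 was called. In vehicle 1 of 9 members passed in the authors' deposited table, where 0.857% of genes were called and 0.73% were lower. Scg2 was lower in shRai1 by 0.72 on the log2 scale (95% interval -0.99 to -0.45, SE 0.14, adjusted p 0.000303), a 1.65-fold difference, and ranked 9 by absolute Wald statistic among 14237 genes in the authors' deposited table. The next largest were Chgb (-0.30, SE 0.12, adjusted p 0.281, unadjusted p 0.0137) and Scg3 (-0.20, SE 0.10, adjusted p 0.452), which did not pass in the authors' deposited table. The other 6 lay between -0.11 and 0.01, with Vgf at 0.00 (95% interval -0.19 to 0.20) and Pcsk1 at -0.04 (-0.29 to 0.21). That table carries no gene names, and its rows were named from the mean count shared with the other tables.

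Under either drug the difference in Scg2 was not detectable. It was 0.13 in TTX (95% interval -0.16 to 0.42) and 0.13 in BIC (-0.12 to 0.38), both with an adjusted p of 1.00 in the authors' deposited tables (DESeq2). None of the 9 members passed in TTX, where 0.0283% of genes did (0.0142% higher and 0.0142% lower), and 1 had an unadjusted p under 0.05, Vgf with -0.26 (SE 0.10, unadjusted p 0.0111, adjusted p 1.00 in the authors' deposited table). None passed in BIC, where 0.00944% of genes did (0.00472% higher and 0.00472% lower), and 0 members had an unadjusted p under 0.05.

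**Figure D3:**
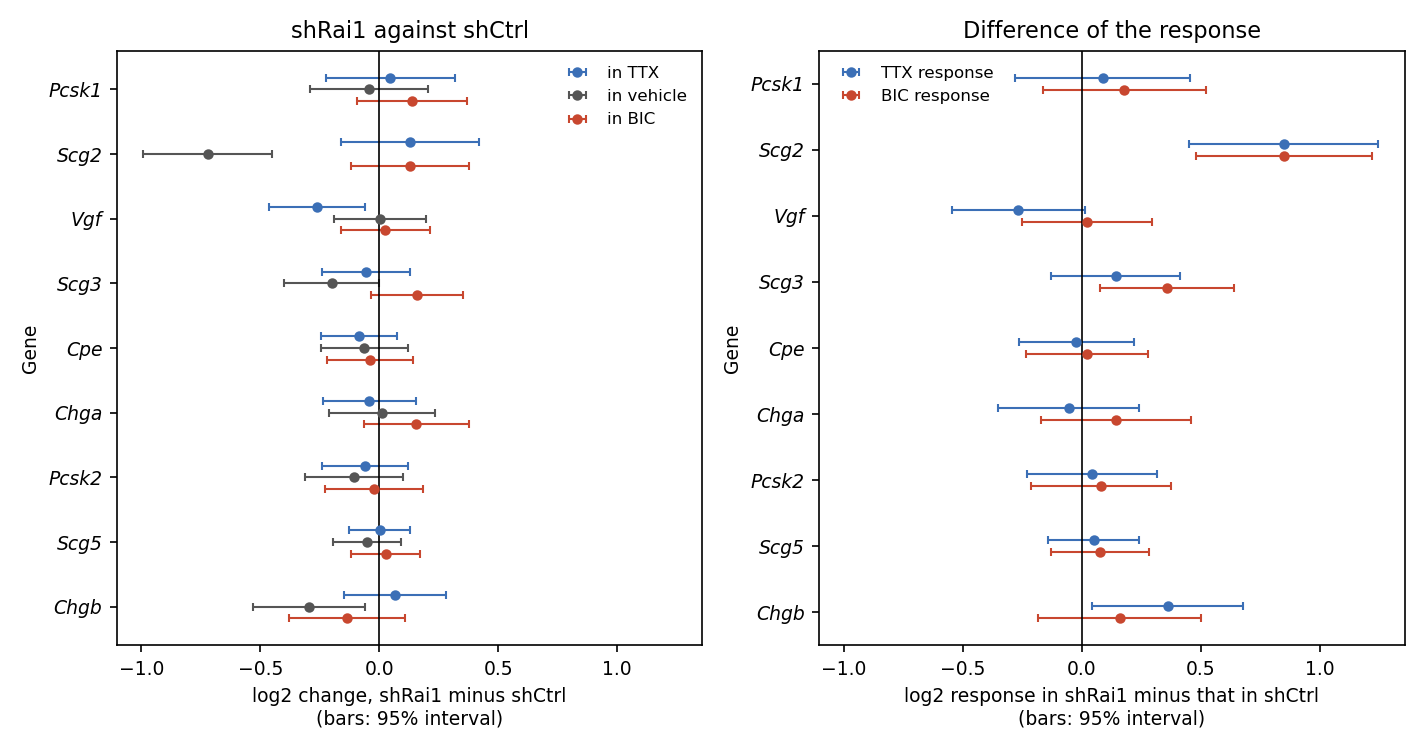
The left panel plots the log2 change of shRai1 against shCtrl within TTX, vehicle and BIC, and the right panel the response in shRai1 minus the response in shCtrl, each with its 95% interval. Scg2 stands at -0.72 in vehicle and at 0.85 in both response differences, while most other intervals span 0.

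Whether the drug response differed between the arms was tested directly by subtracting the shCtrl response from the shRai1 response (Wald test, Benjamini-Hochberg over 18241 genes). For TTX 1 member passed, Scg2 with 0.85 (SE 0.20, adjusted p 0.00921), where 0.943% of genes did and 0.587% were higher. For BIC Scg2 passed as well, with 0.85 (SE 0.19, adjusted p 0.0308), among 0.0219% of genes. Its fall under TTX was thus smaller in shRai1 and its rise under BIC larger, by the same amount. Both differences contain the same vehicle libraries, and their difference, shRai1 against shCtrl in BIC minus the same in TTX, was 0.00 (95% interval -0.38 to 0.38). No member passed for that contrast, for which 0.181% of genes did (0.0658% higher), and 1 had an unadjusted p under 0.05, Vgf with 0.29 (unadjusted p 0.0409, adjusted p 0.896).

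The responses of the other members were not shown to differ between the arms. For TTX the largest was that of Chgb, 0.36 (95% interval 0.04 to 0.68, adjusted p 0.425), followed by Vgf at -0.27 (-0.55 to 0.01, adjusted p 0.603). For BIC it was that of Scg3, 0.36 (0.08 to 0.64, adjusted p 1.00). Pcsk1, which moved as widely as Scg2, had 0.09 for TTX (-0.28 to 0.46) and 0.18 for BIC (-0.16 to 0.52), so that a difference as large as that of Scg2 lay outside these intervals. On simulated data the TTX test recovered 47.1% of true differences of 0.5 and 90.5% of differences of 1, and the BIC test 37.0% and 89.0%, so small differences can be missed.

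Oligodendrocyte lineage markers moved with Scg2 in some of these comparisons and apart from it in others. In vehicle 4 of 8 tested markers of that list were lower in shRai1, with a median of -0.67 in the authors' deposited table, and for the TTX interaction 6 of 10 were higher, with a median of 0.93. Over all genes 0.73% were lower in vehicle and 0.587% were higher for the TTX interaction. For the BIC interaction, in which Scg2 also passed, 0 of these 10 markers were called, against 0.0219% of all genes. Their median there was 0.13, with 2 unadjusted p-values under 0.05. Their median in shRai1 against shCtrl was 0.24 in TTX (1 of 10 higher, against 0.0142% of all genes) per the authors' deposited table. In BIC it was -0.41 (1 of 10 lower, against 0.00472%), and Scg2 had 0.13 in each, per the authors' deposited tables. For the difference of those contrasts it was -0.69, with 3 of 10 lower, where Scg2 had 0.00 and 0.115% of all genes were lower. Astrocyte markers in vehicle had a median of -0.27 in the authors' deposited table, with 1 of 9 lower and 6 with an unadjusted p under 0.05. Neuron markers had medians of -0.10 (1 of 12 higher, 0 lower) and 0.03 (0 higher, 1 lower) for shRai1 against shCtrl in vehicle and the TTX interaction, the first from the authors' deposited table. Over all genes 0.126% were higher in vehicle and 0.356% lower for the TTX interaction. The shCtrl vehicle group lacked replicate 3 and the shCtrl BIC group replicate 1. The part of cell composition or of these libraries in the Scg2 result was not tested.

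Other genes of peptide processing were read from a list of 11. For this list, and for the vesicle and precursor lists below, pooled FPKM was not set beside the deposited changes. Among the members it had reversed the BIC rises of Cpe and Scg3. With TTX in the control arm 2 of 10 tested fell and none rose, by the authors' deposited table: Pam (-0.62, SE 0.12, adjusted p 1.49e-06), which amidates peptide ends, and Furin (-0.45, SE 0.11, adjusted p 0.000249), the convertase of the constitutive pathway. That count is near the 14.9% of all genes that were lower. Under BIC 5 of 11 rose and 3 fell in the authors' deposited table, where 17.4% of all genes were higher and 17% lower. The largest rises there were those of the convertases Pcsk6 (2.01, SE 0.13, adjusted p 5.22e-48) and Pcsk5 (1.03, SE 0.22, adjusted p 2.92e-05) and of Pam (1.29, SE 0.13, adjusted p 7.33e-22). In shRai1 the list had 2 of 10 higher and 3 lower under TTX, against 13.7% and 16.8% of all genes. Under BIC in that arm 5 of 11 were higher and 2 lower, against 21.3% and 21.3% of all genes, with Pcsk6 at 1.76 (SE 0.11), Pam next and Cpd, another carboxypeptidase, at 1.09 (SE 0.070) leading the rises, per the authors' deposited tables. Under TTX in shRai1 Furin changed by -0.73 (SE 0.094), Pam by -0.68 (SE 0.10) and Ctsl, a lysosomal and vesicular protease, by 0.57 (SE 0.12) in the authors' deposited table. Pcsk1n, whose product proSAAS inhibits PC1/3, was lower under BIC in shCtrl (-0.37, SE 0.15, adjusted p 0.0448) in the authors' deposited table, a gene named after its value was seen. In shRai1 it had -0.01 under BIC (adjusted p 0.946) and was higher under TTX (0.35, SE 0.12, adjusted p 0.0161), per the authors' deposited tables.

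Genes of dense-core vesicle formation and release were read from a list of 13. Under TTX in shCtrl 3 rose and 5 fell in the authors' deposited table, where 11.8% of all genes were higher and 14.9% lower. Under BIC 5 rose and 4 fell in the authors' deposited table, against 17.4% and 17% of all genes. Syt4, a vesicle synaptotagmin, fell by 1.11 under TTX (SE 0.10, adjusted p 1.73e-24) and rose by 1.94 under BIC (SE 0.11, adjusted p 7.20e-72), per the authors' deposited tables. Sv2c, a vesicle glycoprotein, rose by 1.48 (SE 0.13, adjusted p 5.21e-29) under the same drug, per the authors' deposited table. Ptprn, which encodes the vesicle membrane protein IA-2, fell by 0.71 (SE 0.097, adjusted p 6.27e-12) under TTX in the authors' deposited table, and A630007B06Rik, listed by RefSeq as a synonym of the vesicle maturation gene Ccdc186, fell by 0.71 (SE 0.11) and rose by 0.83 (SE 0.12) in the authors' deposited tables. In shRai1 the list had 1 higher and 6 lower under TTX, where 13.7% of all genes were higher and 16.8% lower, and 5 higher and 4 lower under BIC, where 21.3% were higher and 21.3% lower. There Syt4 rose by 2.60 (SE 0.085) and Sv2c by 1.77 (SE 0.10) under BIC, while Ptprn (-0.75, SE 0.085) and Rph3a (-0.65, SE 0.082), a Rab3 effector, fell under TTX, per the authors' deposited tables. For shRai1 against shCtrl in vehicle 1 gene of the list was called, Syt4 with -0.58 (SE 0.10, adjusted p 1.40e-05) in the authors' deposited table. There 0.857% of all genes were called and 0.73% were lower. As for Scg2, the drug responses of Syt4 differed between the arms, by 0.66 for TTX (SE 0.14, adjusted p 0.00174) and by 0.66 for BIC (SE 0.14, adjusted p 0.0155, Wald test with Benjamini-Hochberg adjustment). Syt4 was 1 of the 4 genes of 18241 called in the BIC interaction, and 0.943% of these genes were called in the TTX interaction. Both differences of Syt4 contain the vehicle libraries too.

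**Figure D4:**
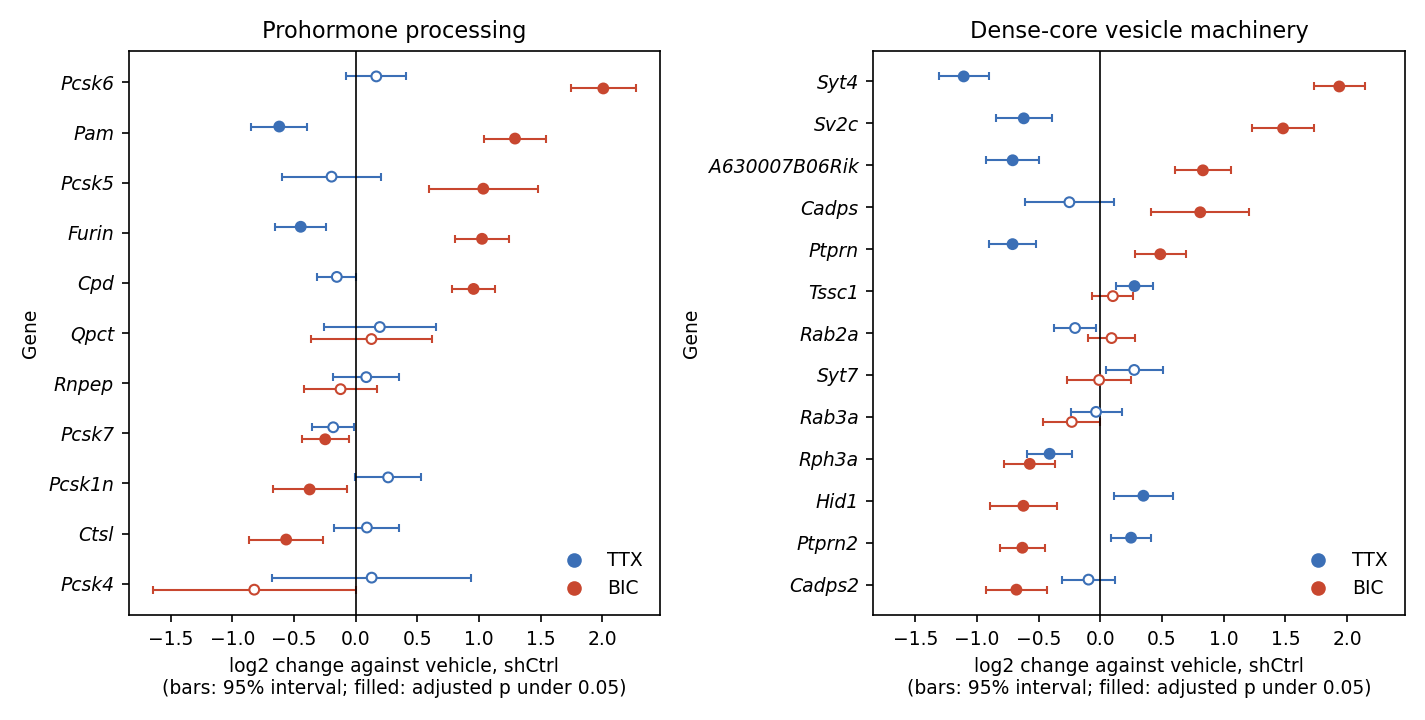
The log2 change against vehicle in shCtrl is plotted for each gene of the peptide processing list (left) and the dense-core vesicle list (right), with its 95% interval, for TTX (blue) and BIC (red), with filled points for calls of the authors' deposited tables. Syt4 shows the widest separation of the drugs on the right (-1.11 and 1.94), and Pcsk6 rises most on the left (2.01) with no call under TTX.

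Neuropeptide precursors, on which these enzymes act, were read from a list of 14. Of these genes, 10 were tested under TTX in shCtrl, where 6 fell and none rose with a median of -0.80, and 12 under BIC, where 6 rose and none fell with a median of 0.73, per the authors' deposited tables. In shRai1 the counts were 5 lower of 10 under TTX and 10 higher and 1 lower of 12 under BIC in the authors' deposited tables. Over all genes 14.9% were lower under TTX and 17.4% higher under BIC in shCtrl, and 16.8% and 21.3% in shRai1. For shRai1 against shCtrl in vehicle 2 of 10 tested precursors were lower, Penk (-0.78, SE 0.13, adjusted p 1.89e-06) and Adcyap1 (-0.84, adjusted p 0.0172), with a list median of -0.43 in the authors' deposited table, where 0.73% of all genes were lower. Of the 14, 1 was called in the TTX interaction, Penk with 0.81 (SE 0.18, adjusted p 0.00487), with a list median of 0.22. Over all genes 0.943% were called there and 0.587% were higher. In the BIC interaction 0 of 14 precursors passed the Wald test, where 0.0219% of all genes did. There 5 precursors had an unadjusted p under 0.05 and the list median was 0.32. Neuron markers had 7 of 12 higher and 3 lower under BIC in shCtrl, with a median of 0.42, and 1 higher and 5 lower under TTX with a median of -0.16, again from the authors' deposited tables. On the pooled FPKM 6 of these 12 lay above vehicle and 6 below under BIC, with a median log2 ratio of -0.048, so the measures differ for this list too. Astrocyte markers had 1 of 9 higher and 4 lower under BIC and 0 higher and 4 lower under TTX there. Oligodendrocyte lineage markers moved with the members under TTX in shCtrl, with 1 of 9 higher, 4 lower and a median of -0.50, but in shRai1 6 of 9 were higher, with a median of 0.47, per the authors' deposited tables. Microglia markers had 3 of 4 tested higher under BIC in shCtrl, with a median of 0.83, and 2 of 6 in shRai1, with a median of 0.46, per the authors' deposited tables. Their summed FPKM over 8 genes went from 37.5 in shCtrl TTX to 71.8 in BIC. Most of that gain lay in Cd68, which went from 14.6 to 40.1, while P2ry12 fell from 1.74 to 1.45. On the pooled FPKM under BIC, 5 of these 8 lay above vehicle and 3 below. The part of cell composition in the members' responses was not tested.

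Profiles over the 6 conditions, each gene centred on its own mean, were compared with those of 12333 genes whose mean normalized count reached 50. By Euclidean distance on the log2 scale the genes nearest to Scg2 were Gadd45g (0.232) and Cyr61 (0.314), and those nearest to Pcsk1 were Pnoc (0.165), itself a neuropeptide precursor, and Cyr61 (0.525). Vgf was nearest to Klhl14 (0.322) and Maff (0.355). Scg2 and Pcsk1 were each other's nearest member, at 0.700, with 8 other genes nearer to Scg2 and 7 nearer to Pcsk1. Scg3 was nearest to Kpna1 (0.101) and Btaf1 (0.102), Cpe to Nptn (0.0342) and Frmpd4 (0.0550), and Scg5 to Celf1 (0.0575) and G3bp2 (0.0858). Chgb was nearest to Nbn (0.0957) and Serpine2 (0.104), Chga to Zfp874b (0.0609) and Zfp68 (0.0656), and Pcsk2 to Zyg11b (0.0412) and Mphosph8 (0.0468). Klhl14, Nptn and Mphosph8 share their listed interval with another gene. Scg5 and Chgb were each other's nearest member at 0.255, with 193 genes nearer to Scg5 and 50 nearer to Chgb. For Vgf the nearest member was Scg2 at 1.38, with 202 other genes nearer. Scg3, Chga, Pcsk2 and Cpe had 831, 1045, 1723 and 2165 genes nearer than their nearest member. The 6 conditions share 16 libraries, and a small distance between genes that hardly move, such as Pcsk2 and Zyg11b, says only that neither moved.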

How the data were processed

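Bru-seq libraries from 16 cultures in 6 groups were used through 7 comparison tables and 1 table of FPKM. RAI1 ChIP-seq of 12 further samples was not analysed here. Each comparison table gives a mean normalized count, a signal averaged by the authors across all libraries, and a Wald statistic, used as a score, from the authors' DESeq2 fit, per the file headers and names. The log2 changes and p-values were used as the authors deposited them. FPKM is a pooled value per condition with bounds that the authors deposited. The submitters' processing notes name TopHat2 2.1.0, Bowtie2 2.2.6, DESeq2 and the build mm9, with no roles. FPKM columns of the shRai1 arm went against the comparison tables in their names and entered only a mean over conditions.

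Gene names are missing from 1 table, that of shRai1 against shCtrl in vehicle. Its rows were named by their mean count, which named 20107 of 21192 tested genes, and the same rule recovered 20107 of 20107 hidden names of another table. Interactions were computed here (Python 3.11.15, scipy 1.17.1) from deposited changes of comparisons without shared libraries, with the root of the summed squared errors. The BIC minus TTX spans share vehicle libraries, so the same formula gives an upper limit of their error. They covered genes named in all tables with a mean of at least 0.1 FPKM. Calls have an adjusted p under 0.05. The arithmetic of the combined tests was checked on simulated data drawn with the deposited errors. That check cannot show whether those errors are right. It drew the responses as independent, also for the spans, whose responses share vehicle libraries.

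The members, lists and tests were chosen with earlier results of these data known. Named genes were the members, Rai1, up to 3 called genes with the largest change per pathway list and response, and 2 nearest genes per member. Pcsk1n, Penk, Adcyap1 and Gjb6 were named outside this rule, after their values were seen. Pcsk2os1 and Pcsk2os2, also outside it, were named because they share the listed interval of Pcsk2. A planned description of protein features was not made. Labels do not say how replicate cultures were kept apart beyond their pools of embryos.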

Additional observations from a re-analysis of the deposited data

Results flagged for a closer look

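The drug response of Scg2 differed between the arms in the test of the difference itself. Between shRai1 and shCtrl the TTX response differed by 0.849 on the log2 scale (adjusted p 0.00921, Wald test with Benjamini-Hochberg adjustment), and over the alternatives its adjusted p ranged from 0.00633 to 0.0107. The BIC response differed by 0.850 (adjusted p 0.0308), with a range of 0.0208 to 0.0400. Both values contain the vehicle libraries of both arms, and the shCtrl vehicle group had 2 libraries. They are thus not 2 separate results. In shRai1 against shCtrl Scg2 differed by -0.72 in vehicle, 0.13 in TTX and 0.13 in BIC. Its BIC minus TTX span, in which vehicle cancels, was 3.81 in either arm.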

How the results depend on the processing

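Leaving out replicates was not run, and with values summed over libraries the weight of any single library is unknown. No paired analysis was possible because the deposited tables hold no value per library. The number of members called was unchanged or within 1.5 times of the main count for every contrast under the other adjustment sets, thresholds and centring, and for the TTX and BIC interactions with errors from the tables of shRai1 against shCtrl, with 1 exception: at a threshold of 0.01 the BIC interaction called 0 members. Centring moved values by at most 0.0438 on the log2 scale, and Chga under BIC in shRai1 then passed. The log2 ratio of pooled FPKM reversed the BIC rises in shCtrl of Scg3 (-0.41 and -0.39 with pseudocounts of 0.1 and 1) and Cpe (-0.38 with either). It moved 16 other values by over 1 SE without changing their direction, for Scg2, Scg5, Chgb, Vgf and Pcsk1 under TTX and Scg2, Scg5, Chgb and Pcsk2 under BIC. Among these it took Pcsk2 under BIC from -0.10 to -0.62 and -0.59, Chgb under BIC from -0.59 to -0.37 and -0.35, Scg5 under TTX from -0.44 to -0.12 with either, and Pcsk1 under TTX from -2.09 to -1.88 and -1.45. The cause was not tested. It left 5 members called on the same side in place of 7, a check chosen after seeing the data. The depth of single libraries is unknown.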
